A study of Homo sapiens with 10 samples.

Results

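The genes described here encode the aminoacyl-tRNA synthetases, the enzymes that load each tRNA with its amino acid. They were chosen by symbol from the probe annotation: AARS1, AARS2, FARSA, FARSB, EPRS1, PARS2, QARS1 and every symbol in which a letter from C to Y stands before ARS1 or ARS2, without pseudogenes. The rule found 17 genes of the 14884 that the annotation names, and all 17 encode cytosolic enzymes. FARSA and FARSB are not named in the annotation, and none of the 17 mitochondrial genes sought is, so those genes are not analysed here and the cytosolic set could not be put beside the mitochondrial one. The 17 genes are read by 19 probe sets, of which the brightest stands for each gene.

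The expression values come from HCT116, an established human colorectal carcinoma line, in 5 versions. WT is the unmutated line, ORC1B14 and ORC1BP32 are mutant for ORC1, and ORC2B2 and ORC2BP8 are mutant for ORC2. Both genes encode parts of the origin recognition complex, the protein assembly that marks where DNA replication begins. The labels give neither the alleles nor how the lines were derived. All cells were untreated and grown at 37 °C in 5% CO2. Each line has 2 arrays, titled biological replicates 1 and 2, and the labels do not say whether these were separate cultures, so a p-value here measures only the spread between these arrays. ORC1 and ORC2 are not named in the annotation, so the mutant labels were not checked against their target genes.

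Each synthetase recognises 1 amino acid and its matching tRNAs, except EPRS1, which carries the glutamate and the proline enzyme in a single chain. In the cytosol several of them sit together in the multisynthetase complex and the others work outside it. KARS1 and GARS1 each give rise to the cytosolic and the mitochondrial enzyme, while most other mitochondrial synthetases have genes of their own. When amino acids run short or the endoplasmic reticulum is under stress, the transcription factor ATF4 raises a set of genes for amino acid synthesis, uptake and charging, many synthetase genes among them. ATF4 binds with partner proteins of the C/EBP family at an element with the core letters TGATGNAA.

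RefSeq promoter windows (GRCh38.p14, 250 bases before to 50 after a start) were listed for 14 of the 17 genes, and the core letters TGATGNAA were searched in them on both strands. They were found in 7 of the 14 genes, or 50% of them, against 4.46% of the 27305 genes that have a window. The narrower form TGATGCAA, which is a case of the first, was found in 6 of the 14, or 42.9%, against 1.08% of genes. The matches are printed here because the genes that hold them include 3 of the 4 that lay farthest below WT in the mutant lines. Each line gives 28 bases, 5′ to 3′ on the gene's strand, with the match in capitals.
AARS1: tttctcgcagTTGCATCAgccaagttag
CARS1: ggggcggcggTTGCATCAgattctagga
GARS1: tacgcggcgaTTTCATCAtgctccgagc
IARS1: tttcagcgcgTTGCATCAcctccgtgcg
MARS1: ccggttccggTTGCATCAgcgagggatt
NARS1: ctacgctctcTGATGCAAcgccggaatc
TARS1: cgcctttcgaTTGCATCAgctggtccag

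Of these 7 matches, 6 lie in the reverse orientation and that of NARS1 reads as the motif is written. The stretches lie at chr16:70289676-70289703 for AARS1 (minus strand), chr11:3057408-3057435 for CARS1 (minus), chr7:30594835-30594862 for GARS1 (plus), chr9:92293693-92293720 for IARS1 (minus), chr12:57488054-57488081 for MARS1 (plus), chr18:57621805-57621832 for NARS1 (minus) and chr5:33440957-33440984 for TARS1 (plus). Distances are counted between the start and the first base of the match. Most matches are close to the start: they begin 2 bases before it in CARS1, 4 in MARS1, 13 in IARS1 and 33 in GARS1. The GARS1 match precedes the second listed start. A match has 8 bases, so those of CARS1 and MARS1 run across the start. In TARS1 and NARS1 the match lies after the start, by 2 and 14 bases. The AARS1 match is the farthest, 187 bases before the start. The windows of EPRS1, HARS1, KARS1, QARS1, RARS1, SARS1 and WARS1 held no match, and LARS1, VARS1 and YARS1 have no window in the table. A match describes the letters and is not a binding site, and no match says only that these letters are not in the window.

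The upstream stretches of AARS1 and SARS1, the genes farthest below WT in the mutant lines, are given whole because they differ in this respect. That of AARS1 is chr16:70289507-70289756 (minus strand, 1 match, in capitals). That of SARS1 is chr1:109213643-109213892 (plus strand, upstream of the first of 2 listed starts, no match).
AARS1: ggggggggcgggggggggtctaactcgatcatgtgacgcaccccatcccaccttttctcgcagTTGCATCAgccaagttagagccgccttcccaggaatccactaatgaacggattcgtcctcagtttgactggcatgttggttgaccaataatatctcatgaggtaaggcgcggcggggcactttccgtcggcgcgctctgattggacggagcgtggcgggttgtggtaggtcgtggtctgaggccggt
SARS1: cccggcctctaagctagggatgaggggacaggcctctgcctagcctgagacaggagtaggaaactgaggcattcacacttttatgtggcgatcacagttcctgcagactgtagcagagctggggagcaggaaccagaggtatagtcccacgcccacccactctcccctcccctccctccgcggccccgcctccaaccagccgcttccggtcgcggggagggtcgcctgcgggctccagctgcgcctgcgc

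The values are log2 expression values, 1 per probe set and array, so a difference of 1 is a doubling. The 10 array medians lay between 3.87 and 3.96. Correlations between the 2 arrays of a line were 0.979 to 0.984 and those between arrays of different lines 0.968 to 0.989, and no 2 arrays were identical. A gene was tested where its probe set reached the array median on at least 2 arrays, which kept 10797 of the 14884 genes. All 17 synthetase genes passed, each on all 10 arrays. Of 10 named epithelial markers 8 passed, with EPCAM at 9.75 to 10.46 and KRT18 at 10.18 to 11.88 on the log2 scale, and LGR5 and CEACAM5 did not. No named fibroblast marker (of 2) or blood cell marker (of 1) passed. Of the 5 hepatocyte and kidney line markers APOA1, PAX2 and PAX8 passed and ALB and AFP did not. The summed log2 level of the epithelial list was 62.4 to 64.7 on the WT arrays and 64.4 to 67.2 on the mutant arrays, and its part in the results below was not tested.

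In the mean of the 4 mutant lines, each line weighted equally, 3 synthetase genes fell: AARS1, SARS1 and GARS1, which load alanine, serine and glycine. They were lower than in WT by 1.97-fold, 1.82-fold and 1.6-fold there. No synthetase gene was called higher. Among all genes tested the same call, an adjusted p (Benjamini-Hochberg over all 10797 genes) below 0.05 in limma's moderated test with a lower value in the mutants, was made for 0.602%, for 0.417% with a higher value, and for 1.02% in either direction. At an unadjusted p below 0.05, limma had 7 of the 17 lower, against 8.51% of all genes, and none higher, against 8.76%. Over the 17 genes 13 differences were below 0, where 44.6% of all genes were, and the median difference was -0.29 on the log2 scale beside 0.04 for all genes. These are extracts of whole cultures, in which fewer cells of a kind and less RNA per cell cannot be told apart. All comparisons with WT share the same 2 WT arrays.

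**Figure D1:**
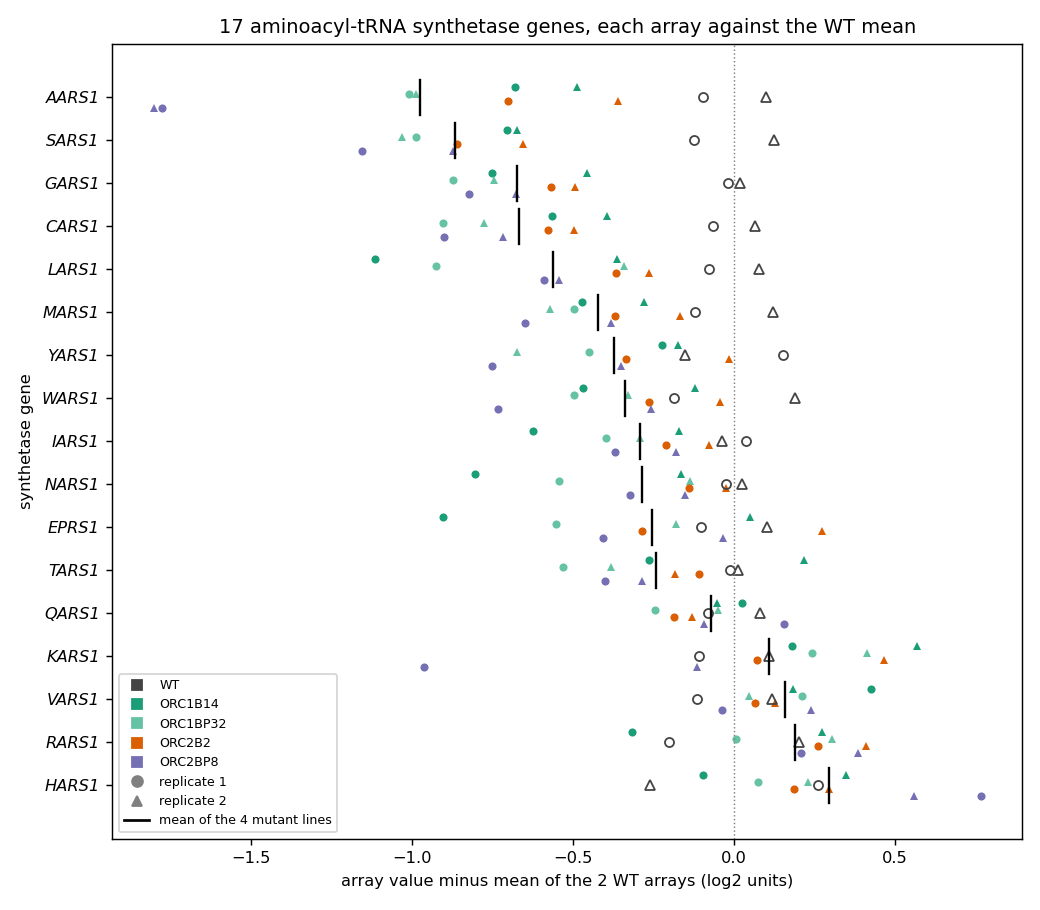
Each symbol is the log2 value of 1 array minus the mean of the 2 WT arrays (x axis, log2 units) for 1 of the 17 synthetase genes (y axis, ordered by the mean difference). Colours are lines, circles and triangles are replicates 1 and 2, open symbols are WT and the black bar is the mean of the 4 mutant lines. All 8 mutant arrays lie left of both WT arrays for AARS1, SARS1, GARS1, CARS1, LARS1, MARS1 and IARS1.

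AARS1, the alanine enzyme, read 11.29 and 11.48 on the WT arrays, 10.71 and 10.90 in ORC1B14, 10.38 and 10.40 in ORC1BP32, 10.69 and 11.03 in ORC2B2, and 9.61 and 9.59 in ORC2BP8 (replicates 1 and 2, log2 values). Every mutant array lay below both WT arrays, and ORC2BP8 lay below all the others. The difference of the 4-line mean from WT was -0.98 (SE 0.13, 95% interval -1.25 to -0.70, limma adjusted p = 0.0107). With WT at 2 arrays, leaving out either of them ended this call (limma adjusted p = 0.0651 without replicate 1 and 0.162 without replicate 2). AARS1 was also the only synthetase gene of the 17 called by limma's F test for any difference among the 5 lines (adjusted p = 0.0101), a call made for 0.658% of all genes, and that call was lost without ORC2BP8 replicate 2 (adjusted p = 0.0523).

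SARS1, the serine enzyme, read 8.98 and 9.22 in WT, 8.40 and 8.43 in ORC1B14, 8.11 and 8.07 in ORC1BP32, 8.24 and 8.44 in ORC2B2, and 7.94 and 8.23 in ORC2BP8. The 8 mutant arrays lay within about 0.5 of each other and all below both WT arrays. The difference was -0.87 (SE 0.15, 95% interval -1.19 to -0.55, limma adjusted p = 0.0264). The call was lost without WT replicate 1 or 2, ORC1BP32 replicate 1 or 2, or ORC2B2 replicate 2 (highest adjusted p 0.250) and with each array centred on its median (limma adjusted p = 0.0535).

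GARS1, the glycine enzyme, read 10.70 and 10.73 in WT, 9.97 and 10.26 in ORC1B14, 9.84 and 9.97 in ORC1BP32, 10.15 and 10.22 in ORC2B2, and 9.89 and 10.04 in ORC2BP8. The WT arrays stood together above the 8 mutant arrays, among which ORC1BP32 and ORC2BP8 overlapped at the low end. The difference was -0.67 (SE 0.12, 95% interval -0.95 to -0.40, limma adjusted p = 0.0366). It was called with ORC1B14 replicate 1 or 2 or ORC2BP8 replicate 1 left out and was not when any of the other 7 arrays was (highest adjusted p 0.264), nor with median centring (limma adjusted p = 0.0665) or without the intensity trend (0.0545).

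CARS1, the cysteine enzyme, had a difference of the same size but was not called. With the replicate number added to the fit as a block, which is not part of the results, CARS1 was called. It read 8.02 and 8.15 in WT, 7.52 and 7.69 in ORC1B14, 7.18 and 7.31 in ORC1BP32, 7.50 and 7.58 in ORC2B2, and 7.18 and 7.36 in ORC2BP8. All 8 mutant arrays lay below both WT arrays. The difference was -0.67 (SE 0.14, 95% interval -0.98 to -0.35, limma adjusted p = 0.0533), and quantile normalisation or a stricter filter on dim probe sets brought it past the threshold (limma adjusted p = 0.0425 and 0.0452), as did leaving out ORC2BP8 replicate 1 (limma adjusted p = 0.0494).

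**Figure D2:**
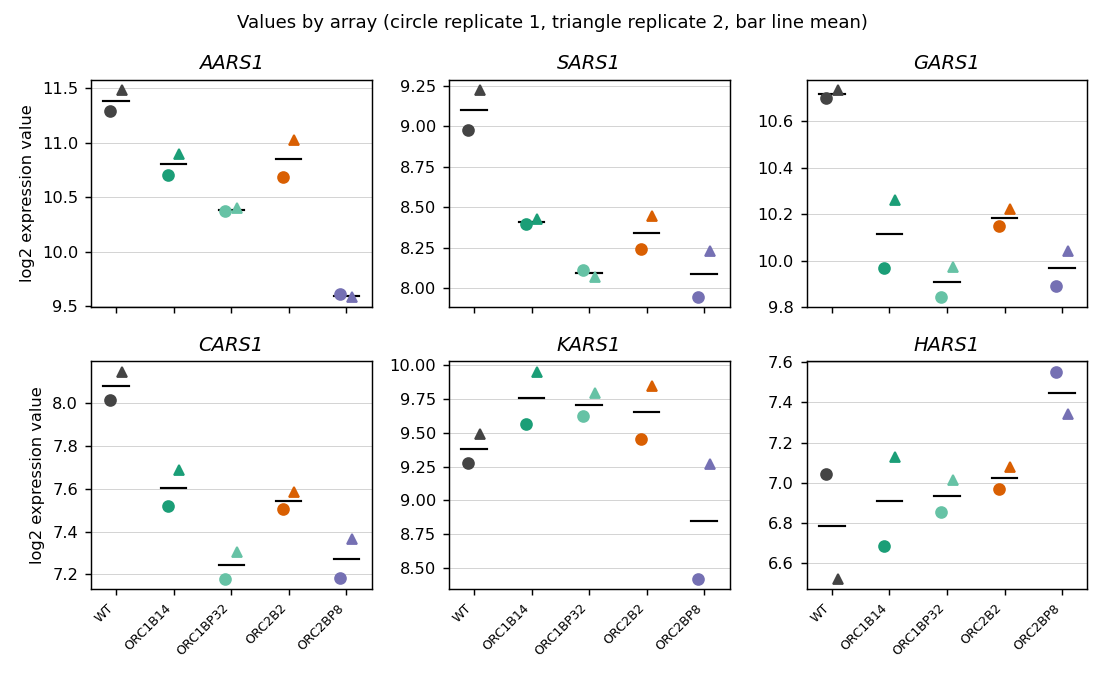
Log2 expression values (y axis, a separate scale in each panel) of 6 synthetase genes in the 5 lines (x axis), with replicate 1 as a circle, replicate 2 as a triangle and the line mean as a bar. For AARS1, SARS1, GARS1 and CARS1 both WT arrays stand above every mutant array; KARS1 has its lowest and HARS1 its highest values in ORC2BP8.

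Of the 7 measured enzymes of the multisynthetase complex, none was called in the 4-line mean, where 1.02% of all genes were called in either direction. The complex brings together EPRS1 with the enzymes for isoleucine (IARS1), lysine (KARS1), leucine (LARS1), methionine (MARS1), glutamine (QARS1) and arginine (RARS1). Their median difference from WT was -0.26, with 5 of 7 below 0, while the 10 enzymes outside it had a median of -0.36, with 8 of 10 below 0. Of all genes, 44.6% were below 0. The difference between these groups was not tested, and the grouping was made after the values were seen. AIMP1, the scaffold protein of the complex that was measured, differed from WT by -0.13 (limma adjusted p = 0.765).

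Inside the complex LARS1, MARS1 and IARS1 had all 8 mutant arrays below both WT arrays. LARS1 read 10.17 and 10.32 in WT and from 9.13 to 9.98 on the mutant arrays. Its difference was -0.56 (SE 0.20, limma adjusted p = 0.179). In ORC1B14 and ORC1BP32 the 2 arrays of LARS1 lay far apart (9.13 and 9.88, 9.32 and 9.90), which gave it a wider error than the 4 genes above. MARS1 read 9.58 and 9.82 in WT and from 9.05 to 9.53 in the mutants, a difference of -0.42 (SE 0.14, limma adjusted p = 0.153). IARS1 read 11.19 and 11.12 in WT and from 10.53 to 11.08 in the mutants, a difference of -0.29 (SE 0.13, limma adjusted p = 0.296). EPRS1 and QARS1 overlapped with WT. For EPRS1 the WT arrays read 10.51 and 10.72 and the mutant arrays from 9.71 to 10.89, and the difference was -0.26 (95% interval -0.77 to 0.26). QARS1 was the closest of the 17 to WT, at -0.07 (95% interval -0.36 to 0.22).

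Outside the complex the enzymes for tyrosine (YARS1), tryptophan (WARS1), asparagine (NARS1) and threonine (TARS1) had values below WT in each of the 4 line means, with arrays that overlapped with WT. Their differences were -0.37, -0.34, -0.29 and -0.24, with limma adjusted p = 0.274, 0.383, 0.411 and 0.384. In all, 7 of the 17 genes had all 8 mutant arrays below both WT arrays, against 6.93% of all genes, and none had all 8 above, against 7.96%. The mean of each of the 4 lines was below WT for 12 of the 17, against 23.9% of all genes, and above WT for HARS1 and VARS1, against 31.7%.

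The 4 genes with the highest differences, HARS1, RARS1, VARS1 and KARS1, had 4-line means above WT, and none of them passed the test. HARS1, the histidine enzyme, read 7.05 and 6.52 in WT, 6.69 and 7.13 in ORC1B14, 6.86 and 7.01 in ORC1BP32, 6.97 and 7.08 in ORC2B2, and 7.55 and 7.34 in ORC2BP8. The WT arrays differed from each other by more than most lines differed from WT, and the ORC2BP8 arrays were the 2 highest of the 10. The difference was 0.29 (95% interval -0.11 to 0.70, limma adjusted p = 0.446). It was -0.03 within replicate 1 and 0.62 within replicate 2.

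RARS1, the arginine enzyme, read 10.01 and 10.42 in WT, 9.90 and 10.49 in ORC1B14, 10.22 and 10.52 in ORC1BP32, 10.48 and 10.62 in ORC2B2, and 10.42 and 10.60 in ORC2BP8. In every line replicate 2 was the higher, and both arrays of ORC2B2 and, by a narrow margin, of ORC2BP8 lay above WT while the other lines overlapped with it. Its difference was 0.19 (95% interval -0.19 to 0.57). VARS1, the valine enzyme, read 8.06 and 8.29 in WT, 8.60 and 8.36 in ORC1B14, 8.39 and 8.22 in ORC1BP32, 8.24 and 8.30 in ORC2B2, and 8.14 and 8.42 in ORC2BP8. Only in ORC1B14 were both arrays above both WT arrays. Its difference was 0.16 (95% interval -0.17 to 0.49), and that of its second probe set was 0.31.

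WARS1 also has a second probe set, which reached the array median on 1 of 10 arrays and had a difference of 0.32 where the one used had -0.34. The values of WARS1 above come from the brighter probe set.

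Taken line by line, ORC2BP8 held all the calls made for single lines in the fit without a replicate block. AARS1 in ORC2BP8 was 3.46-fold below WT, at -1.79 (SE 0.16, 95% interval -2.14 to -1.44, limma adjusted p = 0.00152), and this call held with any 1 of the 10 arrays left out and in every other setting tried, between -1.89 and -1.69. SARS1 fell by 2.02-fold in ORC2BP8, at -1.01 (SE 0.18, limma adjusted p = 0.0322), a call that was kept without ORC1B14 replicate 1 or 2 and lost without any 1 of the other 8 arrays (highest adjusted p 0.225) and with median centring (limma adjusted p = 0.0692). The 2 calls of 17 compare with 0.685% of all genes called lower in ORC2BP8. GARS1 at -0.75 and CARS1 at -0.81 were not called there (limma adjusted p = 0.0567 and 0.0726).

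For the other 3 lines limma called 0 of the 17 genes, where the share of all genes called in either direction was 0.583% in ORC1B14, 0.0185% in ORC1BP32 and 0.333% in ORC2B2. With the replicate number added to the fit as a block, limma called 4, 4 and 1 of the 17 in these lines. Over all genes that fit called 496, 57 and 251. The block is not part of the results, and the other values in this paragraph come from the fit without it. At an unadjusted p below 0.05, limma had 7 of 17 lower in ORC1B14 (8.81% of all genes), 8 in ORC1BP32 (4.82%), 4 in ORC2B2 (5.87%) and 7 in ORC2BP8 (7.15%). HARS1 in ORC2BP8, at 0.66, was the gene higher at that level (7.41% of all genes). AARS1, SARS1, GARS1 and CARS1 were among them in each line. In ORC1BP32 AARS1 was 2-fold and SARS1 2.01-fold below WT (limma adjusted p = 0.0901 and 0.117). Both arrays of a line lay below both WT arrays for 9 of the 17 genes in ORC1B14 (20.2% of all genes), 12 in ORC1BP32 (18.3%), 9 in ORC2B2 (19.9%) and 12 in ORC2BP8 (20.8%). In ORC1B14 the 4 genes stood between -0.69 and -0.48 and in ORC2B2 between -0.76 and -0.53. The median of all 17 was -0.38 in ORC1B14 and -0.41 in ORC1BP32. It was -0.15 in ORC2B2 and -0.50 in ORC2BP8, beside 0.03 to 0.04 for all genes.

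ORC1 mutants were compared with ORC2 mutants to ask whether the values differ with the mutant subunit, and limma called none of the 17 (0.0463% of all genes were called in either direction). AARS1 was 0.37 higher in the ORC1 lines (95% interval 0.12 to 0.62, limma adjusted p = 0.437) and KARS1 0.49 higher (95% interval 0.07 to 0.90, limma adjusted p = 0.627), and these were the 2 genes with an unadjusted p below 0.05 (4.13% of all genes were higher at that level). For both genes the 2 ORC2 lines differed from each other, and the low mean was that of ORC2BP8. AARS1 had log2 means of 10.857 in ORC2B2 and 9.598 in ORC2BP8, against 10.804 in ORC1B14 and 10.388 in ORC1BP32. KARS1 had 9.651 in ORC2B2 and 8.844 in ORC2BP8, against 9.757 in ORC1B14 and 9.709 in ORC1BP32. For SARS1, GARS1 and CARS1 the differences between the ORC1 and ORC2 lines were 0.04 (95% interval -0.25 to 0.32), -0.07 (-0.31 to 0.18) and 0.01 (-0.27 to 0.30).

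ORC2BP8 also stood apart from the other mutant lines, in comparisons that use no WT array and were added after the values were seen. AARS1 was 2.12-fold lower in ORC2BP8 than in the mean of the other 3 mutant lines, at -1.08 (SE 0.13, limma adjusted p = 0.00617), and was the 1 gene of the 17 called (0.472% of all genes). The call was lost without either ORC2BP8 array (highest limma adjusted p 0.0747, with differences between -1.14 and -1.03). At an unadjusted p below 0.05, KARS1 and HARS1 joined it, 3 of the 17 against 6.84% of all genes. In the corresponding comparisons of ORC1B14, ORC1BP32 and ORC2B2 limma called none of the 17, against 0.0556%, 0% and 0.037% of all genes. At an unadjusted p below 0.05 these had 1 (AARS1), 0 and 1 (AARS1), against 6.29%, 5.21% and 5.15% of all genes. With ORC2BP8 left out of the mean, the other 3 lines together were called below WT for AARS1, at -0.70 (limma adjusted p = 0.0460), and SARS1, at -0.82 (limma adjusted p = 0.0438), while GARS1 at -0.65 was not called (limma adjusted p = 0.0519). Of all genes 0.38% were called lower in that comparison. Both calls were lost when a WT, ORC1BP32 or ORC2B2 array or ORC1B14 replicate 1 was left out (highest limma adjusted p 0.297), and with median centring, no filter or no intensity trend.

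KARS1, the lysine enzyme, read 9.27 and 9.49 in WT, 9.56 and 9.95 in ORC1B14, 9.62 and 9.79 in ORC1BP32, 9.45 and 9.85 in ORC2B2, and 8.42 and 9.27 in ORC2BP8. The ORC2BP8 arrays were the lowest, though 0.85 apart and level with WT replicate 1 at the upper end, and the arrays of the other mutant lines reached from just below the higher WT array to above it. In ORC2BP8 its difference from WT was -0.54 (95% interval -1.13 to 0.05, limma adjusted p = 0.389), and from the other 3 mutant lines -0.86 (SE 0.22, limma adjusted p = 0.196).

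AARS1 and KARS1 both lie on chromosome 16, in a stretch of gene order from ITFG1 to DBNDD1 where ORC2BP8 was low at many genes. The stretch was chosen with these values known. In ORC2BP8 the 220 other tested genes of the stretch had a median difference from WT of -0.26, with 167 of them (75.9%) below 0, and the medians were -0.32 in replicate 1 and -0.25 in replicate 2. The 304 tested genes of the rest of the chromosome had a median of 0.09. In ORC1B14, ORC1BP32 and ORC2B2 the medians of the stretch were 0.10, 0.13 and 0.07. AARS1 lay 1.53 below the median of the stretch in ORC2BP8, and 3 of the 220 genes were lower than it. In the other lines it lay 0.69, 1.13 and 0.60 below the median in ORC1B14, ORC1BP32 and ORC2B2. KARS1 lay 0.28 below the median in ORC2BP8, where 67 of the 220 genes were lower. The part of the stretch in the AARS1 and KARS1 values of ORC2BP8 was not tested.

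**Figure D3:**
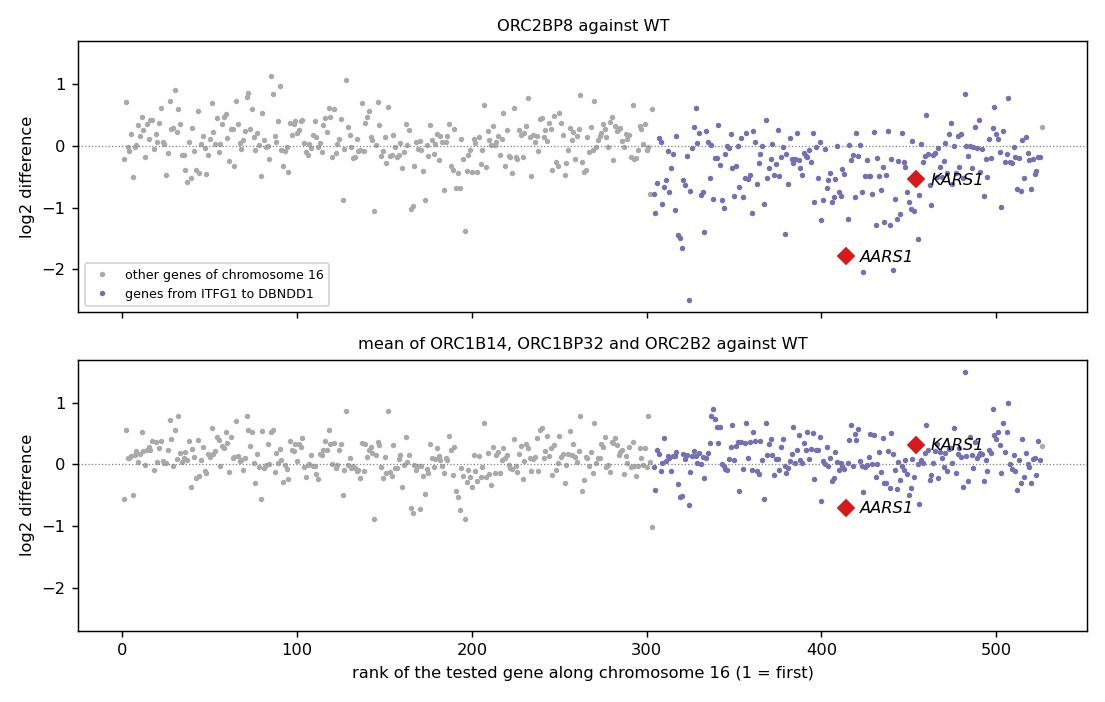
Each point is a tested gene of chromosome 16 in its order along the chromosome (x axis, rank) and its log2 difference from WT (y axis), for ORC2BP8 above and for the mean of the other 3 mutant lines below. Genes from ITFG1 to DBNDD1 are purple, other genes grey, and AARS1 and KARS1 are red diamonds; in ORC2BP8 the purple genes have a median of -0.26, and AARS1 lies well below most of them.

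The 10 tested genes on either side of each synthetase gene were also read. In ORC2BP8 the 20 neighbours of AARS1 had a median of -0.50 and those of KARS1 -0.30, with 16 of 20 below 0 for each gene. AARS1 and KARS1 themselves stood at -1.79 and -0.54 there. In the other mutant lines these neighbour medians lay between -0.09 and 0.10. How far these neighbours enter the AARS1 and KARS1 values was not tested. For SARS1 on chromosome 1 and CARS1 on chromosome 11 the medians of the 20 neighbours lay between -0.03 and 0.21 in the 4 lines. For GARS1 on chromosome 7 the neighbours had medians of -0.32, -0.21, -0.20 and -0.24 in ORC1B14, ORC1BP32, ORC2B2 and ORC2BP8, where GARS1 itself stood at -0.60, -0.81, -0.53 and -0.75. GARS1 was thus lower than the median of its neighbours in each line, and how far the neighbourhood enters its values was not tested.

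Replicate 2 read higher than replicate 1 for most synthetase genes in every line. The median of replicate 2 minus replicate 1 over the 17 genes was largest in ORC1B14, at 0.35, with 15 of 17 higher in replicate 2. It was 0.16 in WT (14 of 17), 0.15 in ORC1BP32 (13 of 17), 0.13 in ORC2B2 (16 of 17) and 0.18 in ORC2BP8 (14 of 17). Over all genes these medians were 0.03 to 0.07. The widest gap was that of EPRS1 in ORC1B14, at 0.95.

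Set against the promoter sequences above, the 7 genes with TGATGNAA in a window had differences from -0.98 to -0.24 in the 4-line mean, all below 0, with a median of -0.42. The 7 genes whose windows held no match ranged from -0.87 (SARS1) to 0.29 (HARS1), with 4 below 0 and a median of -0.07. The ranges overlap, since SARS1 is the second lowest of all 17. The difference between these groups was not tested, and the matches were printed with these values known. Any part of ATF4 in these values was not tested either. The 3 genes with no window were LARS1 at -0.56, YARS1 at -0.37 and VARS1 at 0.16.

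Other genes known to respond to ATF4 were read from lists chosen with earlier results of these data known. In the list of ATF4 and the integrated stress response, 11 of 16 genes are named and 9 were tested. All 9 were below WT in the 4-line mean, with a median of -0.89, and limma called 3 of them lower and none higher. Of all genes tested, 44.6% were below 0 in that comparison, 0.602% were called lower and 0.417% higher. TRIB3, a pseudokinase induced under amino acid shortage, read 8.28 and 8.40 in WT and from 6.32 to 7.18 on the mutant arrays, and it was the gene of the list called in each of the 4 lines. Its 4-line difference was -1.73 (SE 0.20, limma adjusted p = 0.0107), a call lost without WT replicate 2 (0.140). Its calls in single lines were each lost without either WT array and without some others (highest limma adjusted p 0.546, in ORC1BP32). DDIT3, the stress transcription factor also called CHOP, read 6.56 and 6.76 in WT and from 4.45 to 5.67 in the mutants, with a difference of -1.55 (SE 0.20, limma adjusted p = 0.0107, and up to 0.162 without either WT array). DDIT4, an inhibitor of mTORC1 signalling, was at -1.14 (SE 0.22, limma adjusted p = 0.0399), a call lost without either array of WT or ORC1BP32, replicate 2 of ORC2B2 or of ORC2BP8, or with no filter (highest adjusted p 0.258). The ATF4 transcript itself read 9.94 and 10.22 in WT and from 9.42 to a value between the 2 WT arrays in the mutants, and its difference of -0.34 was not called (limma adjusted p = 0.296). Of the genes tested in this list, 8 have a promoter window and 1, ATF3, holds TGATGNAA in it. ATF3 had the highest 4-line difference of the 9, at -0.05. Its mean was above WT in ORC1B14 (0.31) and ORC1BP32 (0.17) and below it in ORC2B2 and ORC2BP8.

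Among genes for amino acid synthesis, 8 of 10 are named and tested. Their median in the 4-line mean was -0.46 with 5 of 8 below 0, against 44.6% of all genes. ASNS alone was called, in the lower direction, a call made for 0.602% of all genes. ASNS, asparagine synthetase, makes asparagine and is no tRNA enzyme. It read 9.17 and 9.51 in WT, 7.94 and 8.56 in ORC1B14, 7.60 and 7.70 in ORC1BP32, 7.94 and 8.62 in ORC2B2, and 7.49 and 7.80 in ORC2BP8. All mutant arrays lay below both WT arrays. The difference was -1.39 (SE 0.22, limma adjusted p = 0.0207), and the call was lost without either WT array (highest adjusted p 0.216). ASNS is also the 1 of 5 tested genes of this list with a window that holds the TGATGNAA letters.

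Other groups of the translation machinery held no call in the 4-line mean. Of all genes, 1.02% were called there in either direction and 44.6% were below 0, so no call is the usual outcome for short lists. The 5 measured cytosolic elongation factors, which bring charged tRNA to the ribosome and move it along, had a median of -0.10 with 3 below 0. The 9 measured factors of mitochondrial tRNA charging and translation had a median of -0.07 with 5 below 0. The 4 measured proteins of tRNA proofreading, export and charging had a median of -0.16, all 4 below 0. They include TARS3, itself a threonine synthetase, which the symbol rule left out because its symbol ends in 3. Of the MYC-driven ribosome biogenesis genes 6 were measured, with a median of 0.08 and 2 below 0. Of the genes induced by interferon-gamma, as WARS1 is known to be, only IRF1 was tested, at 0.16. Of the epithelial markers KRT20 was called, higher in ORC2B2 at 1.99 (limma adjusted p = 0.0322). In that line 0.333% of all genes were called in either direction. The KRT20 call was lost without either array of WT or ORC1BP32 or without ORC2B2 replicate 2.

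**Figure D4:**
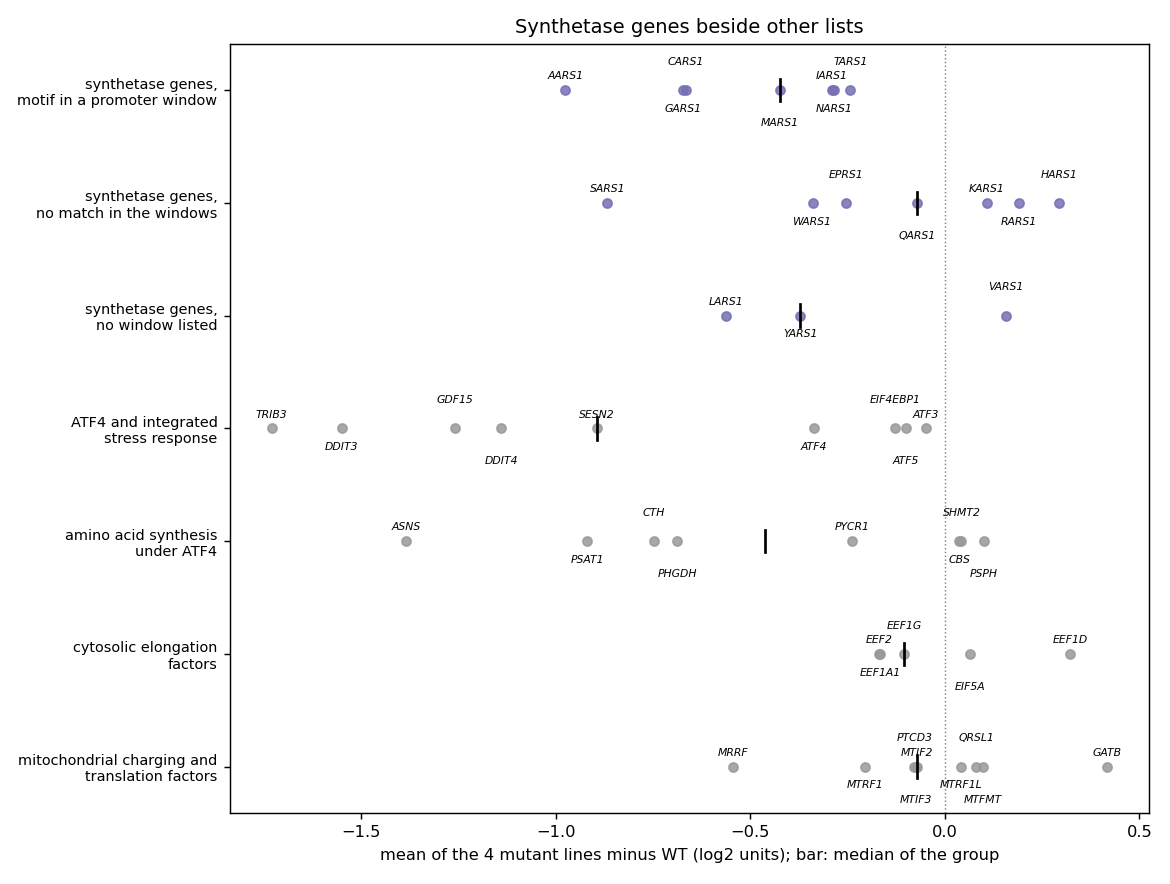
Each point is the log2 difference of the mean of the 4 mutant lines from WT (x axis) for 1 gene, in rows by group, with the synthetase genes in purple split by the promoter motif and other lists in grey; bars are group medians. The synthetase genes with the motif are all below 0 with a median of -0.42, and those with no match in the windows have a median of -0.07. The list of ATF4 and the integrated stress response has a median of -0.89. Differences between the groups were not tested.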

How the data were processed

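Expression was read on Affymetrix arrays, 2 for each of 5 HCT116 lines. Trizol was used for the RNA and an Affymetrix kit for the biotin-labelled cRNA, per the labels' protocols. The authors deposited 1 log2 value per probe set and array, 53617 probe sets in all, made with Affymetrix Expression Console (version not stated) per the submitters' processing notes. The log base is stated in none of the sources used here and was read from the range of the values, 1.45 to 13.71. For the build and the summarisation method, the sources used here give nothing.

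The platform annotation gave a symbol to 16098 probe sets and none to 37519. A probe set was kept when it reached the array's overall median on 2 or more arrays, and the brightest one by mean was used for a gene. Lines were compared on the deposited values with limma 3.58.1 (R 4.3.3, lmFit and eBayes with an intensity trend, 5 residual and 5.83 prior degrees of freedom), which was tested on simulated data. All 10 arrays shared 1 estimate of spread, and p-values were adjusted over the 10797 genes tested. With 2 arrays a line, their number limits the precision. Promoter windows and gene order come from RefSeq (GRCh38.p14).

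The members and lists were chosen with earlier results of these data known. Values on every array are given for members called in any comparison and for the 4 highest and 4 lowest. From the other lists called genes are named (at most 6 a list). EPCAM, KRT18, ATF4, IRF1, AIMP1 and ATF3 were named after their values were seen. Comparisons among mutant lines, the grouping by complex and the 3-line mean were added after seeing the data. Alternatives were quantile normalisation, median centring, filters, the mean over probe sets, no trend, a replicate block and leaving out each array. Same-numbered arrays were not treated as pairs, because their deviations correlated above 0.1 in 9 of 10 pairs of lines and not in all.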

Additional observations from a re-analysis of the deposited data

Results flagged for a closer look

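AARS1 differed between mutant lines, in a comparison that uses no WT array. ORC2BP8 lay below the mean of the other 3 mutant lines (a log2 difference of -1.08, limma adjusted p = 0.00617), with both of its arrays below the other 6. The call was lost without either ORC2BP8 array (highest adjusted p 0.0747). KARS1 went the opposite way in ORC2BP8 from the other 3 mutant lines. Its difference from WT was -0.54 in ORC2BP8, with both arrays below the WT mean, while all 6 arrays of the other mutant lines were above it. This opposition of signs was not tested as such, and the limma comparison of ORC2BP8 with the other 3 lines did not pass (adjusted p = 0.196). Both genes lie in the stretch of chromosome 16 described above.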

How the results depend on the processing

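The counts of calls, the median of the 17 genes, the synthetase genes given on every array, the called genes of the other lists and the added comparisons among lines were recomputed, 36 results with 630 alternative values. The list genes and added comparisons were rerun after seeing the data. Counts of arrays below WT, list medians, neighbour medians and promoter groups were not recomputed. Of the 630 values 490 kept their direction and side of the threshold (counts within 1.5 times), 125 were weaker, 11 stronger and 4 changed sign. Those 4 belong to genes that were not called in the 4-line mean: KARS1 (-0.0011) and RARS1 (-0.012) without WT replicate 1, and HARS1 (-0.028) and KARS1 (-0.0076) within replicate 1. Leaving out other arrays gave up to 0.22 for KARS1 and 0.39 for RARS1, both without WT replicate 2. The median of the 17 genes in the 4-line mean stayed between -0.43 and -0.16. With the replicate number as a block, limma called 4 of the 17 in ORC1B14, 4 in ORC1BP32, 1 in ORC2B2, 4 in ORC2BP8, 6 in the 4-line mean, 5 in the F test and 0 between ORC1 and ORC2 lines, and over all genes 496, 57, 251, 402, 709, 382 and 58 in place of 63, 2, 36, 101, 110, 71 and 5. CARS1 in the 4-line mean was called with the block (limma adjusted p 0.0133), as was KARS1 in ORC2BP8 against the other 3 mutant lines. The block is not part of the results because the numbers were not shown to pair the arrays, though 9 of 10 arrays correlated best with their own number. Centring each array on its median left 1 call in ORC2BP8 and 1 in the 4-line mean. Leaving out 1 array at a time gave 1 to 3 calls in ORC2BP8 and 0 to 4 in the 4-line mean, with 0 when either WT array was absent. It gave 0 to 1 in the F test, with 0 without ORC2BP8 replicate 2. It gave 0 calls throughout in the other comparisons. Without the line ORC2BP8 the mean of the other mutant lines had 2 calls. In fits with 1 array left out, the lone array of that line was assumed to vary like the other lines. The planned median of mitochondrial synthetase genes was not run, since none is named. Signal over background was not analysed here; all 17 genes reached the array median on all 10 arrays. With 2 arrays a line, a p above the threshold does not show that a gene is unchanged.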
